A study of Mus musculus with 6 samples.

Results

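The genes described here are 50 cytosolic and mitochondrial chaperones and their helpers, taken by gene symbol from 21851 genes measured by RNA sequencing of mouse bone marrow LT-HSCs, the long-term blood-forming stem cells, sorted as Lin-, c-Kit+, Sca1+, CD34- and CD135- cells. They were chosen by function, with earlier results of the diet comparison known, so their differences between diets are given as a description and are not independent evidence. All 50 symbols were found, and 49 passed the filter on low values. Both groups were wild-type (WT) mice. The comparison group had the control diet (CD) and the other group the high cholesterol diet (HCD), each for 3 months and with 3 libraries. The sources used here give no age, sex or strain, and do not say whether each library is 1 animal or a pool, so the tests measure the spread between these libraries, which may be technical.

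Chaperones are proteins that help other proteins reach and keep their folded shape. HSP70 binds short unfolded stretches with the help of J proteins, which bring clients and start ATP hydrolysis, and of exchange factors such as the HSP110 proteins, which release the nucleotide. HSP90 takes over partly folded clients, among them kinases and steroid receptors, through a set of co-chaperones. The ring-shaped chaperonins HSP60 and CCT enclose their clients, in mitochondria and in the cytosol, and prefoldin hands actin and tubulin to CCT. Heat shock factor 1, encoded by Hsf1, is the main activator of the stress-inducible members and binds heat shock elements, alternating GAA and TTC units in promoters. Blood-forming stem cells make protein slowly and are known to depend on protein quality control.

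The deposited values, whose headers name no unit, were taken as FPKM, a level per transcript length and per library. From the step size of low values the libraries held an estimated 18820000 to 19980000 reads or fragments. Transcripts of the sort markers Kit (114 to 122 FPKM) and Ly6a (59.4 to 69.96 FPKM) were present. So were Cd34 (448 to 488 FPKM) and Flt3 (99.7 to 114.7 FPKM), the genes of the CD34 and CD135 proteins that the gate excludes. The stem cell marker Slamf1 was low (1.47 to 3.69 FPKM), and Mecom, Fgd5, Vwf and Hoxb5 lay between 0.63 and 6.32 FPKM. The stem cell markers Hlf (47.2 to 56.97 FPKM) and Procr (19.2 to 24.3 FPKM) were higher. Without HCD replicate 2 the genes past the threshold of the test went from 818 to 1501 lower and from 670 to 1206 higher, so results that rest on it are given with and without it. In bulk RNA, fewer cells of a type and less RNA per cell cannot be told apart.

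The heat shock element was looked for in promoter windows of 300 bases, from 250 before to 50 after each RefSeq start (GRCm38.p6), in 2-unit form (GAANNTTC or TTCNNGAA, each reading the same on both strands) and in 3-unit form (GAANNTTCNNGAA or its reverse TTCNNGAANNTTC, which contain 2-unit forms). Windows were found for 41 of the 50 members. A 2-unit form lay in 17 of the 41 (41.5%), against 17.0% of all 27025 genes with a window, and a 3-unit form in 5 (12.2%), against 0.66%. These are counts of genes, not of separate elements. Both include Hspd1 and Hspe1, which share the same run of units, and the first includes Hspa1a and Hspa1b, whose windows are near copies. The elements of 8 members are shown 5′ to 3′ on the gene's own strand, 30 bases each, with the GAA and TTC units in capitals, because they include members that fell (Hsph1, Hspd1, Dnaja1, Fkbp4) and members that were not past the threshold (Dnajb6, Dnajb4, Hspa1a, Hspa1b).
Hsph1: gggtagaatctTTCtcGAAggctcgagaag
Hspd1: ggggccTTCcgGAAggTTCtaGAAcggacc
Dnaja1: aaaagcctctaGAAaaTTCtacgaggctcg
Fkbp4: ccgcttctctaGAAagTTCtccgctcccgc
Dnajb6: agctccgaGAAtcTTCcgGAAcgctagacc
Dnajb4: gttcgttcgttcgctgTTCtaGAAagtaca
Hspa1a: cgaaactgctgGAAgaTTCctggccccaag
Hspa1b: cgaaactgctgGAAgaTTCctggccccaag
In the same order these lie at chr5:149636351-149636380 (minus strand), chr1:55088053-55088082 (minus), chr4:40722333-40722362 (plus), chr6:128438789-128438818 (minus), chr5:29735844-29735873 (plus), chr3:152193846-152193875 (minus), chr17:34972242-34972271 (minus) and chr17:34959324-34959353 (minus). All lie upstream of the RefSeq start named for them, and those of Hsph1, Hspd1, Dnaja1 and Dnajb6 also overlap a GENCODE exon of the same gene. The stretch shown for Hsph1 holds a 2-unit form, and its 3-unit form, downstream of the start, is not shown. The Hspd1 window is shared with Hspe1, which is read in the opposite direction from a start 216 bases away, measured from 1 of the 2 RefSeq starts of Hspd1, and it holds 4 units in a row. The windows printed for Hspa1a and Hspa1b have the same letters, and their whole 300-base windows differ at 4 bases.

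Across all 10676 genes tested, 13.9% passed an adjusted p of 0.05 by limma fitted to log2(FPKM + 1), with 7.66% lower and 6.28% higher under HCD (818 and 670 genes, against 585 and 784 with trimmed-mean scaling and 575 and 780 after removing a transcript-length trend). Of the 49 chaperone members tested, 24 were past it and lower, 1 was past it and higher, and 24 were not past it. The HCD libraries all lay below the CD libraries in 28 of the 49 members and all above in 1, where 37.7% of all tested genes had groups apart, 22.7% below and 15% above. The members' median log2 change was -0.22, against -0.03 over all tested genes. The summed level of the 50 members was 8444, 8640 and 8501 FPKM in CD replicates 1, 2 and 3 and 6969, 7453 and 6863 FPKM in HCD replicates 1, 2 and 3. As a share of all FPKM this was 1.975%, 1.995% and 1.99% under CD and 1.58%, 1.61% and 1.58% under HCD, so the groups did not overlap. The 3 highest members, Hsp90ab1, Hspa8 and Hsp90aa1, made up a mean of 47.5% of the summed level under CD and 46.7% under HCD. Of the 24 falls, 16 were kept under each of 13 other settings, including with each library left out in turn.

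**Figure D1:**
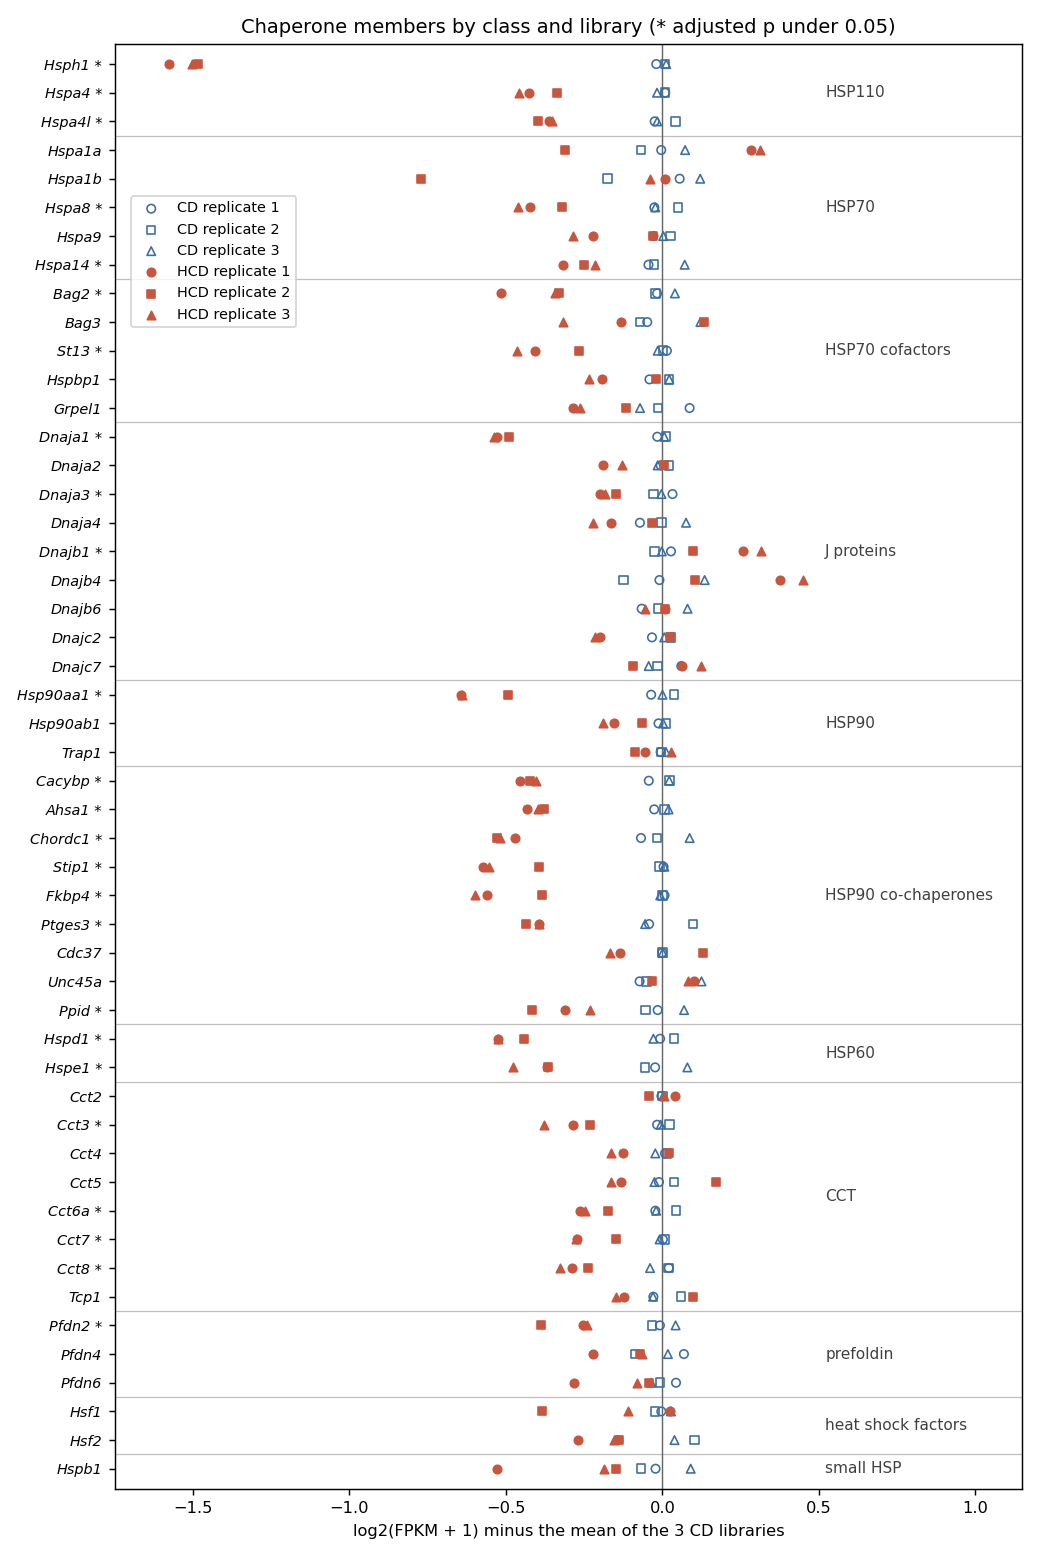
Each row is 1 of the 50 members, grouped by class, and each point 1 library, as its log2(FPKM + 1) minus the mean of the 3 CD libraries (open blue, CD; filled red, HCD; circles, squares and triangles for replicates 1, 2 and 3; star, past the threshold). Hsph1 lies farthest to the left, most HSP90 co-chaperones and both HSP60 genes lie left of 0, and Dnajb1 and Dnajb4 lie to the right.

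The HSP110 class, exchange factors of HSP70, held the largest change of any member, that of Hsph1, and all 3 of its members fell. Hsph1, the stress-inducible HSP110 (chromosome 5, 149614287 to 149636376, GRCm38 as for all gene positions here), measured 48.5, 49.5 and 49.6 FPKM in CD replicates 1, 2 and 3 and 15.8, 16.96 and 16.7 in HCD replicates 1, 2 and 3. The groups were far apart and the replicates tight, and Hsph1 fell by 66.4% (log2 change -1.52 ± 0.05, SE). Hspa4, its constitutive relative, measured 103, 103 and 101 FPKM under CD and 75.7, 80.6 and 74.1 under HCD. It fell by 24.8% (log2 change -0.41 ± 0.05), again without overlap. Hspa4l, another relative at a lower level, measured 8.29, 8.72 and 8.34 FPKM under CD and 6.36, 6.17 and 6.40 under HCD and fell by 25.4% (log2 change -0.37 ± 0.07). The call of Hspa4l was lost without CD replicate 2 (log2 change -0.35) and when the trend against transcript length was removed (-0.23). The level of Hspa4 was 2.12, 2.08 and 2.03 times that of Hsph1 in the CD libraries and 4.78, 4.75 and 4.43 times in the HCD libraries.

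In the HSP70 class, the constitutive and abundant Hspa8 fell, while the heat-inducible pair Hspa1a and Hspa1b did not pass the threshold. Hspa8 (chromosome 9, 40800984 to 40810087) measured 1483, 1561 and 1486 FPKM in CD replicates 1, 2 and 3 and 1126, 1207 and 1097 in HCD replicates 1, 2 and 3. It fell by 24.3% (log2 change -0.40 ± 0.06), and every HCD library lay below every CD library. Hspa1a measured 7.82, 7.43 and 8.30 FPKM under CD and 9.75, 6.13 and 9.97 under HCD. HCD replicates 1 and 3 were above the CD libraries and HCD replicate 2 below them (log2 change 0.09 ± 0.15). Hspa1b measured 15.3, 12.9 and 16.1 FPKM under CD and 14.8, 8.21 and 14.3 under HCD, with HCD replicate 2 again the lowest (log2 change -0.27 ± 0.19). These genes are near copies: 58.8% of the 50-base words of the Hspa1a transcript also occur in Hspa1b, so reads may be split between them and their separate values are uncertain. Hspa14, a ribosome-bound HSP70, measured 16.96, 17.2 and 18.5 FPKM under CD and 13.9, 14.6 and 14.9 under HCD and fell by 17.5% (log2 change -0.26 ± 0.06). That call was lost without CD replicate 1, 2 or 3 or HCD replicate 1 (log2 changes of -0.28, -0.27, -0.23 and -0.23). Hspa9, the mitochondrial HSP70, measured 188, 195 and 192 FPKM under CD and 164, 188 and 157 under HCD. Its groups did not overlap, but it did not pass (log2 change -0.18 ± 0.07) except with the replicate number as a block (limma adjusted p = 0.0496), after quantile normalization (log2 change -0.21) or without HCD replicate 2 (-0.25).

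Of the 5 cofactors of HSP70, St13 and Bag2 fell. St13 encodes HIP, which holds HSP70 in its client-binding state, and measured 153, 151 and 149.7 FPKM under CD and 114, 126 and 109 under HCD, a fall of 23.2% (log2 change -0.38 ± 0.06). Bag2, an exchange factor that also restrains the ubiquitin ligase CHIP, measured 14.7, 14.6 and 15.3 FPKM under CD and 10.1, 11.6 and 11.5 under HCD and fell by 25.6% (log2 change -0.40 ± 0.07, and -0.38 without CD replicate 3, where it no longer passed). Bag3, an exchange factor that links HSP70 to autophagy, had overlapping groups (log2 change -0.11 ± 0.12). Hspbp1, a cytosolic exchange factor, and Grpel1, that of mitochondrial HSP70, had log2 changes of -0.15 ± 0.06 and -0.22 ± 0.07 and did not pass, except without HCD replicate 2 (-0.21 and -0.27).

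The J proteins went both ways. Dnaja1, a main cytosolic J protein (chromosome 4, 40722150 to 40737149), measured 99.4, 101 and 101 FPKM in CD replicates 1, 2 and 3 and 69.5, 71.4 and 68.9 in HCD replicates 1, 2 and 3. It fell by 30.5% (log2 change -0.52 ± 0.04), with the groups well apart. Dnajb1, the heat-inducible HSP40 (chromosome 8, 83608193 to 83612653), measured 51.9, 50.004 and 50.8 FPKM in CD replicates 1, 2 and 3 and 61.1, 54.5 and 63.6 in HCD replicates 1, 2 and 3. It was the 1 member past the threshold in the other direction, 1.17-fold higher under HCD (log2 change 0.22 ± 0.06). All 3 HCD libraries were above the CD libraries, but the call was lost with no filter on low values, or without any CD library, HCD replicate 1 or HCD replicate 3 (log2 changes of 0.18 to 0.24 over those 5). Dnajb4, a close relative of Dnajb1, measured 11.3, 10.4 and 12.6 FPKM under CD and 15.1, 12.3 and 15.96 under HCD. HCD replicate 2 lay within the CD range, and Dnajb4 was not past the threshold (log2 change 0.31 ± 0.10), but passed as higher with the replicate block (limma adjusted p = 0.0169), after quantile normalization (log2 change 0.34), with the length trend removed (0.37) and without HCD replicate 2 (0.41). Dnaja3, a mitochondrial J protein, measured 29.3, 28.01 and 28.5 FPKM under CD and 24.8, 25.7 and 25.1 under HCD and fell by 11.98% (log2 change -0.18 ± 0.05). It was lost under 9 of the 13 other settings, among them the replicate block (limma adjusted p = 0.0544) and the removal of any library but HCD replicate 2 (log2 changes of -0.16 to -0.19). The ratio of Dnajb1 to Dnaja1 levels was 0.52, 0.49 and 0.50 in the CD libraries and 0.88, 0.76 and 0.92 in the HCD libraries. The other 5 J proteins did not pass, with log2 changes of -0.14 for Dnaja4, -0.13 for Dnajc2, which pairs with Hspa14 on ribosomes, -0.10 for Dnaja2, -0.01 for Dnajb6, which restrains protein aggregation, and 0.03 for Dnajc7, which binds both HSP70 and HSP90.

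The cytosolic HSP90 genes parted from each other. The stress-inducible Hsp90aa1 (chromosome 12, 110690605 to 110702728) measured 551, 579.5 and 565 FPKM in CD replicates 1, 2 and 3 and 362, 402 and 362 in HCD replicates 1, 2 and 3. It fell by 33.6% (log2 change -0.59 ± 0.06), and the groups were far apart. The constitutive Hsp90ab1 (chromosome 17, 45567775 to 45573271), the member with the highest level, measured 1959, 1991 and 1979.5 FPKM in CD replicates 1, 2 and 3 and 1774, 1889 and 1732 in HCD replicates 1, 2 and 3. Its HCD libraries were below its CD libraries, but it did not pass (log2 change -0.14 ± 0.05) except after quantile normalization (-0.27) or without HCD replicate 2 (-0.17). The level of Hsp90ab1 was 3.56, 3.44 and 3.50 times that of Hsp90aa1 in the CD libraries and 4.90, 4.70 and 4.79 times in the HCD libraries. Trap1, the mitochondrial HSP90, measured 89.9, 89.9 and 90.98 FPKM under CD and 86.8, 84.8 and 91.97 under HCD, with overlapping groups (log2 change -0.04 ± 0.04).

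**Figure D2:**
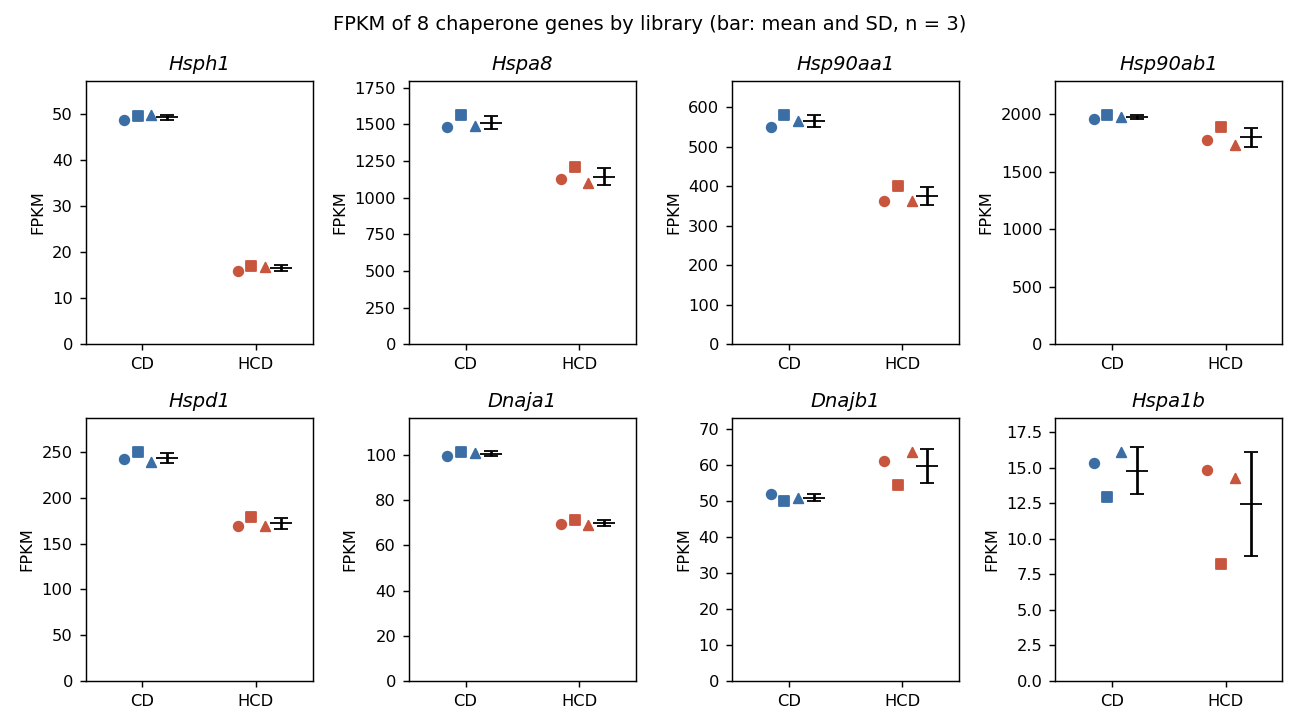
FPKM (vertical axes, from 0) of 8 members in each library by diet, with circles, squares and triangles for replicates 1, 2 and 3 and a bar for the mean and SD (n = 3). Hsph1, Hspa8, Hsp90aa1, Hspd1 and Dnaja1 are lower in all 3 HCD libraries, and Hsp90ab1 is lower by a smaller share of its level. Dnajb1 is higher, and HCD replicate 2 is lowest for Hspa1b.

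Of the 9 HSP90 co-chaperones 7 fell, with log2 changes from -0.51 to -0.32. Fkbp4, the immunophilin FKBP52 of steroid receptor complexes, measured 238, 237 and 236 FPKM under CD and 160.2, 181 and 156 under HCD and fell by 29.96% (log2 change -0.51 ± 0.06). Stip1 encodes HOP, which joins HSP70 to HSP90, and measured 154, 152 and 154 FPKM under CD and 103, 116 and 104 under HCD, a fall of 29.7% (log2 change -0.51 ± 0.05). Chordc1, an HSP90-binding protein, measured 55.95, 57.97 and 62.4 FPKM under CD and 42.1, 40.4 and 40.7 under HCD and fell by 30.1% (log2 change -0.51 ± 0.05). In all 3 genes the groups were apart, and HCD replicate 2 was the highest HCD library for Fkbp4 and Stip1 but the lowest for Chordc1. The other falls were those of Cacybp (log2 change -0.43 ± 0.04), Ptges3, which encodes p23 (-0.41 ± 0.05), Ahsa1, the activator of the HSP90 ATPase (-0.40 ± 0.04), and the cyclophilin gene Ppid (-0.32 ± 0.06). The call of Ppid was lost without CD replicate 1 or 3 (-0.33 and -0.28). Cdc37, which brings kinases to HSP90, measured 145, 145 and 145 FPKM under CD and 132, 159 and 129 under HCD. Its HCD libraries lay on both sides of the tight CD libraries (log2 change -0.06 ± 0.07). Unc45a, a chaperone of myosin, had overlapping groups (log2 change 0.05 ± 0.07).

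Both genes of the mitochondrial HSP60 chamber fell. Hspd1, the HSP60 subunit (chromosome 1, 55077835 to 55088243), measured 243, 250.2 and 239 FPKM in CD replicates 1, 2 and 3 and 169, 179 and 169 in HCD replicates 1, 2 and 3. It fell by 29.3% (log2 change -0.50 ± 0.05). Hspe1, its lid HSP10 (chromosome 1, 55088132 to 55091307), measured 199, 195 and 214 FPKM under CD and 157, 157 and 145 under HCD and fell by 24.6% (log2 change -0.40 ± 0.05). Neither gene's groups overlapped. The ratio of Hspd1 to Hspe1, which share the element-bearing promoter printed above, was 1.22, 1.28 and 1.12 in the CD libraries and 1.08, 1.14 and 1.16 in the HCD libraries, with overlap. Of the 6 mitochondrial members 3 fell (Hspd1, Hspe1 and Dnaja3) and 3 were not past the threshold (Hspa9, Grpel1 and Trap1). Their median log2 change was -0.20, and that of the 43 other tested members -0.23.

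Among the 8 subunits of CCT, the cytosolic chaperonin that folds actin and tubulin, 4 fell and 4 did not pass. Cct3 measured 234, 241 and 236 FPKM under CD and 194, 201 and 182 under HCD and fell by 18.7% (log2 change -0.30 ± 0.05). Cct8 measured 190.5, 190.4 and 183 FPKM under CD and 154, 159 and 149.5 under HCD and fell by 17.99% (log2 change -0.28 ± 0.04). Cct7 and Cct6a fell by 14.9% and 14.7% (log2 changes -0.23 ± 0.05 and -0.23 ± 0.04). Both calls were lost without any CD library or HCD replicate 1 (log2 changes of -0.21 to -0.24), and that of Cct7 also with trimmed-mean scaling (-0.20). In contrast Cct2 measured 251, 252 and 252 FPKM under CD and 259, 244 and 252 under HCD, with the same mean in both groups to within the spread of the HCD libraries. The log2 changes of Cct4, Tcp1 and Cct5 were -0.09 ± 0.06, -0.06 ± 0.07 and -0.04 ± 0.08, and in these 3 genes HCD replicate 2 was above the mean of the CD libraries.

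The subunits stand in equal number in the CCT ring, but their transcript levels were unequal. By CD mean the order was Cct5 (277 ± 6.32 FPKM, SD, n = 3), Cct2, Cct3, Cct4, Tcp1, Cct8, Cct6a and Cct7 (161 ± 0.95 FPKM). The CD libraries of Cct4 overlapped those of Tcp1, and those of Cct6a overlapped those of Cct7. The highest subunit was 1.71, 1.75 and 1.70 times the lowest in the CD libraries and 1.94, 2.16 and 1.90 times in the HCD libraries. The coefficient of variation over the 8 subunits was 19.8%, 19.8% and 20.2% under CD and 25.7%, 27.8% and 25.0% under HCD, and HCD replicate 2 was the most uneven library.

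**Figure D3:**
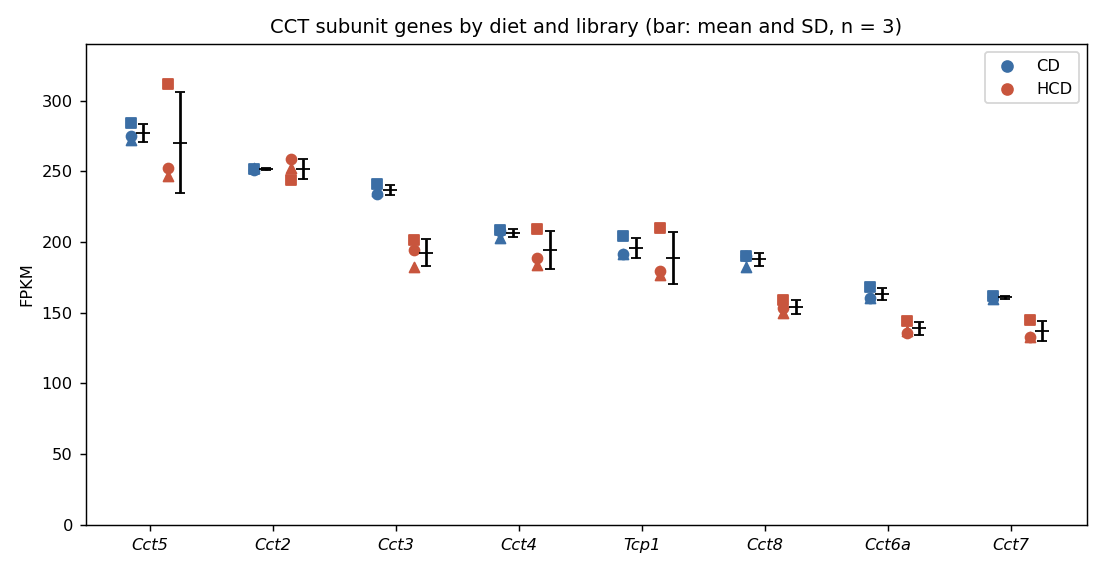
FPKM of the 8 CCT subunit genes, ordered by CD mean, in each library (blue, CD; red, HCD; circles, squares and triangles for replicates 1, 2 and 3; bar, mean and SD, n = 3). Cct3, Cct8, Cct6a and Cct7 are lower in all HCD libraries, while the Cct2 means lie within the HCD spread and Cct5 is highest in HCD replicate 2.

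Of the 3 prefoldin subunits Pfdn2 fell. It measured 69.7, 68.4 and 72.2 FPKM under CD and 58.6, 53.3 and 59.1 under HCD, a fall of 18.7% (log2 change -0.29 ± 0.05), and the call was lost without CD replicate 1 or 3 (-0.30 and -0.27). Pfdn4 and Pfdn6 had log2 changes of -0.12 ± 0.07 and -0.14 ± 0.07 and were not past the threshold, except Pfdn6 without HCD replicate 2 (-0.18).

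The transcripts of the heat shock factors did not pass. Hsf1 measured 26.1, 25.7 and 26.7 FPKM under CD and 26.6, 19.8 and 24.2 under HCD (log2 change -0.16 ± 0.09), with HCD replicate 2 below all other libraries and HCD replicate 1 within the CD range. Hsf2 measured 2.83, 3.53 and 3.34 FPKM under CD and 2.50, 2.84 and 2.80 under HCD (log2 change -0.19 ± 0.10), with overlapping groups at a low level. Hspb1, the small heat shock protein HSP25, measured 0.58, 0.53 and 0.71 FPKM under CD and 0.11, 0.45 and 0.41 under HCD, under the filter of 1 FPKM in every library. That is about 11 reads in a CD library, and it was not tested.

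Falls were found among members with and without a match to the heat shock element in the window. The difference between these sets was not tested. Of the 17 with a 2-unit form 16 were tested, of which 7 fell and 0 rose, with a median log2 change of -0.18 and a range from -1.52 to 0.31. Of the 24 with a window but no such letters 13 fell and 1 rose, with a median of -0.23 and a range from -0.51 to 0.22. The 9 members without a window could not be placed: Hspa8, Hspa9, St13, Dnajc2, Hsp90aa1, Hsp90ab1, Ppid, Cct4 and Hsf1. Of these 4 fell and 0 rose, with a median of -0.18 and a range from -0.59 to -0.09. The 5 members with a 3-unit form were Hsph1, Hspd1, Hspe1 and Chordc1, which fell, and Dnajb6, which did not pass (22.4, 23.3 and 24.9 FPKM under CD and 23.6, 23.7 and 22.6 under HCD). Dnajb4, whose printed window has a 2-unit form just before the start, had a positive log2 change, and Dnajb1 had no match in its windows. A match describes letters only and shows no binding. Only exact letters at a fixed spacing were searched, so a window without a match does not show that the gene lacks an element.

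HSP110, HSP60 and the HSP90 co-chaperones had the lowest class means, in that order, in HCD replicates 1 and 3. The HSP110 mean rested largely on Hsph1 (log2 change -1.52, against -0.41 for Hspa4 and -0.37 for Hspa4l). By class median the log2 change was -0.451 for HSP60, -0.408 for HSP90 co-chaperones and -0.407 for HSP110. Over the tested members of a class, the mean log2 difference from CD was -0.79, -0.74 and -0.77 for HSP110 in HCD replicates 1, 2 and 3. It was -0.45, -0.40 and -0.50 for HSP60 and -0.36, -0.32 and -0.35 for HSP90 co-chaperones. For J proteins it was -0.06, -0.06 and -0.05, with Dnaja1 below 0 and Dnajb1 and Dnajb4 above it. For CCT, HCD replicate 2 stood nearer to CD than the others, at -0.07 against -0.18 and -0.21, and for HSP70 farther, at -0.34 against -0.13 and -0.14, where Hspa1a and Hspa1b were lowest in HCD replicate 2. HCD replicate 2 was the highest of the 3 HCD libraries in 33 of the 50 members (66.0%), and in 36.3% of all tested genes. Without HCD replicate 2, the falls over all 10676 tested genes went from 818 to 1501 and the rises from 670 to 1206. Among the 50 members, 35 were then lower and 3 higher. The 11 added falls were those of Hspa9, Hspbp1, Grpel1, Dnaja2, Dnajc2, Hsp90ab1, Cdc37, Cct4, Cct5, Tcp1 and Pfdn6 (log2 changes of -0.14 to -0.27), and the added rises those of Hspa1a (0.30) and Dnajb4 (0.41).

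**Figure D4:**
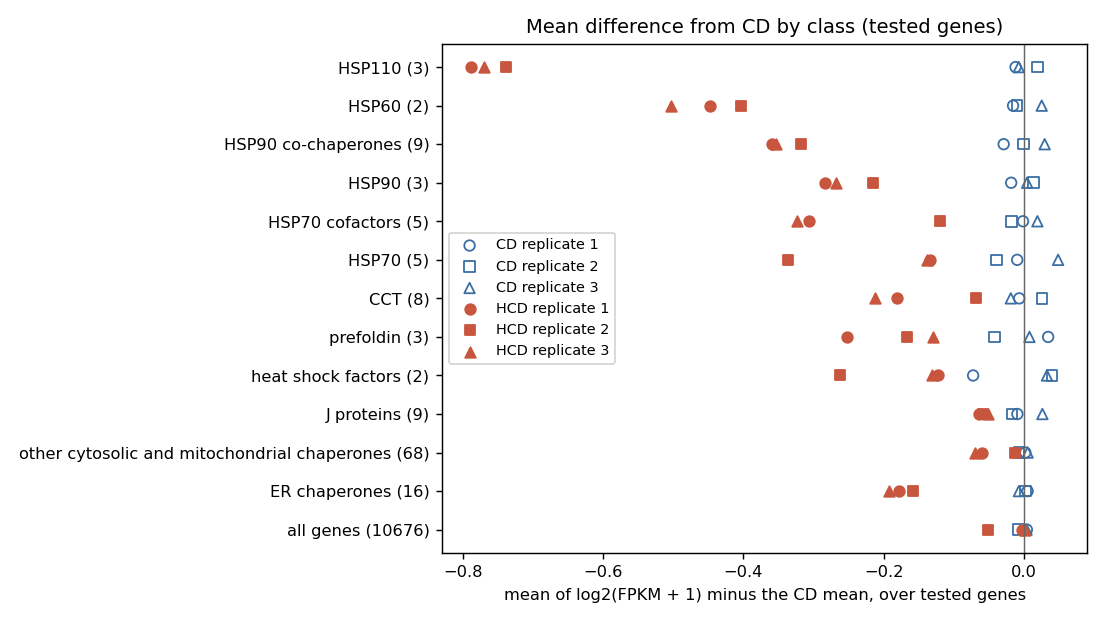
Mean over tested genes of log2(FPKM + 1) minus the CD mean, by class and library (open blue, CD; filled red, HCD; circles, squares and triangles for replicates 1, 2 and 3; number of tested genes in brackets). HSP110, whose mean rests largely on Hsph1, lies near -0.8 and HSP60 near -0.4 to -0.5 in all 3 HCD libraries. All genes together lie near 0.

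A list of 78 other cytosolic and mitochondrial chaperones and co-chaperones, chosen by function and with none of the members, gives the rest of the cytosolic and mitochondrial network. Of its 68 tested genes 6 fell (8.82%) and 2 rose (2.94%), with a median log2 change of -0.04. Over all tested genes 7.66% fell and 6.28% rose, so the share of falls in this list was near that of all genes. Among the falls were those of Ahsa2 (log2 change -0.37, limma adjusted p = 0.0108), the proteasome shuttle gene Ubqln4 (-0.36, adjusted p = 0.00372), the J protein gene Dnajb2 (-0.33, adjusted p = 0.0369), the AAA ATPase gene Ruvbl1 (-0.22, adjusted p = 0.0232) and Fkbp5, an immunophilin of steroid receptors (-0.22, adjusted p = 0.042). Hscb, a mitochondrial J protein of iron-sulfur cluster transfer, rose from 36.1 ± 2.48 to 51.4 ± 3.74 FPKM (SD, n = 3; log2 change 0.50, adjusted p = 0.00358), and the small heat shock protein gene Hspb6 from 2.43 ± 0.0823 to 3.43 ± 0.25 FPKM (0.37, adjusted p = 0.0238). The number of falls went from 1 without CD replicate 1 or 3 to 18 without HCD replicate 2, and was 2 without CD replicate 2, 3 without HCD replicate 1 and 3 with no filter. The rises numbered 1 without any CD library or HCD replicate 1, and 5 without HCD replicate 2. Whether the members and this list differ was not tested. Of 16 chaperones of the endoplasmic reticulum 9 fell and 0 rose, led by Hsp90b1 (-0.43, adjusted p = 0.00077), Sdf2l1 (-0.40, adjusted p = 0.00205) and Hyou1, the HSP110 of that compartment (-0.39, adjusted p = 0.0015). With trimmed-mean scaling, and without any CD library or HCD replicate 1, 5 of these fell.

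Other transcripts moved along the same comparison. The immediate early genes, which also respond to cell isolation, had 15 rises and 2 falls among 22 tested of 24, with a summed level of 3427 to 3661 FPKM under CD and 6430 to 8243 under HCD, lowest in HCD replicate 2. All 8 listed markers of granulocyte and monocyte progenitors rose, with sums of 881 to 910 FPKM under CD and 1658 to 1826 under HCD. Among them Cebpe was under 1 FPKM in CD replicates 1 and 3 (0.89 and 0.47) and entered the test only through its HCD libraries. Of 7 neutrophil markers 6 were tested and rose (sums of 12.2 to 12.3 and 40.0 to 48.2 FPKM), of which Camp, Lcn2 and Retnlg reached 1 FPKM only under HCD and entered the test only through it. Ngp, under 1 FPKM in CD replicate 1 (0.90), also needed its HCD libraries to enter. Of 5 megakaryocyte markers 3 were tested and rose (46.9 to 51.6 and 78.2 to 92.5 FPKM). Of 7 macrophage markers 5 were tested, with 1 rise and 3 falls (14.3 to 15.2 and 11.2 to 13.1 FPKM), but the 3 that fell (C1qa, C1qb and Vcam1) were under 1 FPKM in all HCD libraries and entered the test only through CD. Of 26 DNA replication genes 12 fell and 0 rose (1965 to 1997 and 1748 to 1801 FPKM). Of the stem cell markers Slamf1 and Vwf rose and Hlf and Fgd5 fell, of 8 tested (264.7 to 272 FPKM under HCD, 279 to 280.2 under CD). Cd34 and Flt3, the genes of proteins that the gate excludes, did not pass. Neither did Cd48 (66.9 to 74.8 FPKM), whose protein the gate does not name. The B cell list had 0 calls of 2 tested, the T and NK cell list 1 rise and 1 fall of 2, the erythroid list 1 fall of 3 and the endothelial list 1 rise and 1 fall of 3. The T cell marker Cd3e was at 0 in every library, and Cd3d and Cd3g were at or below 0.10 FPKM. In the same list Nkg7, the rise, was at 102 to 148 FPKM. Cd4, the fall, was at 0.87 to 2.28 FPKM and under 1 FPKM in HCD replicates 1 and 2. Longer transcripts had lower log2 changes (Spearman rho of -0.25 across 10335 genes, which are not independent), and with that trend removed 22 members were lower and 2 higher. The part of progenitor makeup, cell isolation and cell cycle in the chaperone differences was not tested.

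Sequence shared with other genes limits some of these values. In 14 of the 50 members at least 10% of the 50-base words of the longest protein-coding GENCODE vM21 transcript (for Cct6a, the longest of any type) also occur in a transcript of another gene. The shares were 73.2% for Hspa8, 58.5% for Hsp90aa1, 44.8% for Hspd1, 36.1% for Hspe1, 30.9% for Ppid and 18.7% for Dnaja1, and the sources used here do not say how such reads were assigned. The shares were 0% for Hsph1, Hspa4, Fkbp4 and Cct8, 4.5% for Hsp90ab1, 5.6% for Stip1 and 0.3% for Chordc1.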

How the data were processed

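RNA from 6 sorted samples (3 CD, 3 HCD) was sequenced after stranded mRNA library preparation, per the labels' protocols. As tools, fastp, StringTie and HISAT2 stand in the submitters' processing notes, beside the builds mm10 and GRCm38. No version, annotation, filter or strand setting is given in the sources used here. The authors deposited 1 table per library, taken as FPKM from the values, since the headers name no unit. In 27 of 21878 rows the symbol had become a date, and these (0.127% of FPKM) were left out. Among 1254 genes with no value above 0.1 FPKM, 90.9% had values in whole steps of 1 read (tolerance 0.02 of a step), and 0% with wrong relative depths. These steps gave the depth estimate. No count model was used.

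Values were tested as log2(FPKM + 1), two-sided and with no covariate, by limma 3.58.1 under R 4.3.3 with its trend and robust options. A gene entered when 3 or more libraries reached 1 FPKM, p-values were adjusted over all entered genes by Benjamini-Hochberg, and the threshold was 0.05. On this scale the log2 change of a gene at a low level comes out too small. The procedure was also run on simulated data with independent noise in each gene and library, and the outcome is not given here. Those data had no library-wide deviation like that of HCD replicate 2 and no length trend. The members, lists, alternatives and the rule for named genes were chosen with earlier results of these data known. That rule takes up to 3 members a class with the largest change past the threshold, the heat shock factors, Hspa1a, Hspa1b, Hspb1 and all CCT and prefoldin subunits, and up to 5 in each direction of the other chaperones and 3 of the endoplasmic reticulum list. Fkbp5 and the other members were named beyond it, after their values were seen. 1 gene that the rule names in the list of other chaperones is not reported here.

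Same-numbered CD and HCD libraries deviated together from their group means (correlations of 0.103, 0.292 and 0.166 across genes for numbers 1, 2 and 3). Unlike numbers 1 and 3 correlated nearly as much as the number 1 pair: 0.098 with number 1 from CD, and 0.094 with number 3 from CD. Unlike pairs that included a number 2 lay between -0.25 and -0.133. Deviations from a group mean cancel out within the group. The negative values of unlike pairs thus follow in part from the positive number 2 pair and are not separate evidence. The correlations set number 2 apart but hardly separate 1 from 3. The numbers were still taken to pair the libraries, though the labels do not say so. The main test is unpaired, and the block is an alternative. Promoter windows are from RefSeq (GRCm38.p6) and positions from GENCODE vM21 (GRCm38). No deposited column was left unmapped.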

Additional observations from a re-analysis of the deposited data

How the results depend on the processing

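The 24 falls among the members were also 24 under the replicate block, without a filter, with a 5 FPKM filter and at a pseudocount of 0.1, were 25 after quantile normalization, and 22 with trimmed-mean (TMM) scaling or the length trend removed. With 1 library left out they ranged from 17 to 35, and the rises from 0 to 3. The rises were 0 with no filter and 2 after quantile normalization, with the length trend removed or with the replicate block. With the block Dnaja3 was lost and Hspa9 and Dnajb4 were gained. No other member's call changed under the pairing. In the other chaperones the falls were 3 with no filter and ranged from 1 to 18 with a library left out. The rises were 4 after quantile normalization or removal of the length trend and ranged from 1 to 5. The endoplasmic reticulum falls were 5 with TMM scaling and 5 to 11 with a library left out. Over all genes the falls went from 181 to 1501 and the rises from 258 to 1206 with a library left out, lowest without CD replicate 1 and highest without HCD replicate 2. The class median moved by more than the replicate SD for HSP90 after quantile normalization (-0.27) and HSP110 with the length trend removed (-0.356). It ranged from -0.284 to -0.208 for HSP70, -0.16 to -0.0617 for J proteins and -0.182 to -0.0695 for prefoldin with a library left out. The log2 change crossed 0 under some alternative in 7 members, none of them past the threshold in the main test. Over all alternatives it ranged from -0.15 to 0.06 for Cdc37, -0.22 to 0.0011 for Bag3, -0.05 to 0.03 for Dnajb6 and -0.02 to 0.09 for Dnajc7. For Cct2 the log2 change was 0.0322 with TMM scaling and ranged from -0.0202 to 0.0217 with a library left out (1.87e-05 without CD replicate 2, 0.0011 without CD replicate 3, highest without HCD replicate 2). For Cct5 it ranged from -0.148 to 0.0198, and was above 0 without HCD replicate 1 (0.0023) or 3, and for Hspa1a from -0.0147, without HCD replicate 3, to 0.296. The cause of these shifts was not tested. Leaving out a library also leaves fewer samples. Depth limits Hspb1, Dnaja4 and Pfdn4 most, with about 11, 161 and 239 reads in a CD library.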
